A study of Mus musculus with 29 samples.

Results

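The chains of nonmuscle myosin II were examined in the tibialis anterior (TA) muscle of aging mice. They comprised 6 genes of the 22537 in the count table, taken by symbol: the heavy chains Myh9, Myh10 and Myh14, the regulatory light chains Myl12a and Myl12b, and the essential light chain Myl6. The family was selected because, in earlier results of these data, its light chains and heavy chains differed in opposite directions between 28m and 6m, so the differences of the members between 28m and 6m below are a description with no test. That label held for 5 of the 6 genes only, since Myh14 was not lower at 28m. All mice were untreated male C57BL/6 animals at 6m, 24m, or 28m, an age the labels give as 28 months or older, and whole TA muscles gave poly-A RNA for sequencing with 75-base single-end reads. The first run held 7 mice at 6m and 7 at 24m. The second run held 8 mice at 28m and a new library from each of the same 7 mice at 6m, so that 29 libraries came from 22 mice. Each age was compared with the 6m libraries of its own run.

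Nonmuscle myosin II is the motor that pulls on actin filaments outside the sarcomere. A molecule is a pair of heavy chains, each carrying an essential light chain and a regulatory light chain, and it assembles into filaments and contracts when the regulatory chain is phosphorylated by its kinases, while myosin phosphatase reverses this. Myh9, Myh10 and Myh14 encode the heavy chains of the isoforms IIA, IIB and IIC, and the same light chains serve all of them. In muscle tissue these genes are used both by the fibres and their precursors and by the vessel, connective tissue and immune cells between them, so that in a whole muscle fewer cells of a type and less RNA per cell cannot be told apart.

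The genes differ in length and in how much of their sequence is their own. In GENCODE's GRCm38 annotation, Myh9 lies at chr15:77760587-77842175 on the minus strand with 7433 exonic bases, Myh10 at chr11:68691559-68816632 on the plus strand with 8647, and Myh14 at chr7:44605803-44670843 on the minus strand with 6609. The light chain genes are short: Myl6 at chr10:128490860-128494145 has 1690 exonic bases, and Myl12b at chr17:70973133-70990890 and Myl12a at chr17:70993656-71002878 have 2312 and 2431, all on the minus strand. Myl12a and Myl12b are neighbours with nearly the same product. Their coding sequences of 519 bases are identical at 501, and the first 300 coding bases of both are shown because the differing letters, in capitals, are what lets a read be given to one gene or the other.
Myl12a: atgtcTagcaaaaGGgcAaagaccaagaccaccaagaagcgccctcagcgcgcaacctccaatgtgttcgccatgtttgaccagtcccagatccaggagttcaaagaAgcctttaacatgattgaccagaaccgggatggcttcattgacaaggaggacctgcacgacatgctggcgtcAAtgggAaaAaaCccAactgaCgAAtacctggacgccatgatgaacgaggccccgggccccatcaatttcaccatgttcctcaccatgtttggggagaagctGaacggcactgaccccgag
Myl12b: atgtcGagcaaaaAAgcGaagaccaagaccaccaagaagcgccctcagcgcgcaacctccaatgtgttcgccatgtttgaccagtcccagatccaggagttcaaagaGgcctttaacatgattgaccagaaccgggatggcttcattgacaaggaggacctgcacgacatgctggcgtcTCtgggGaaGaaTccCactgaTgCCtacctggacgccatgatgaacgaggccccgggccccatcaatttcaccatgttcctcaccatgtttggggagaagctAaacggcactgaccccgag
The capitals mark the 15 positions at which the genes differ in this stretch, and the longest identical run in the coding sequence is 105 bases. Outside the coding sequence the genes differ more. Of the 75-base stretches of the transcripts, 26.9% for Myl12a and 32.2% for Myl12b occur in another gene, mostly in a readthrough gene with the symbol Myl12b, and 3.44% of those of Myl12a occur in Myl12b itself. This readthrough shares 462 exonic bases with Myl12a and 739 with Myl12b, and 207 exonic bases of Myl12a overlap the sarcomere gene Myom1 on the other strand. For Myl6, 12.5% of the stretches occur in other genes, the processed pseudogenes among them, whereas for Myh9 and Myh10 the share is 0.652% and 0.622% and for Myh14 it is 0%. The strand setting of the counting is not given in the sources used here, which bears on Myl12a and on Myh14, 60 exonic bases of which overlap an antisense gene. The authors' annotation, which may or may not hold the readthrough, was not used here. How far the shared stretches affect the values of Myl12a, Myl12b and Myl6 was not tested, and these values carry that uncertainty.

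The promoters of the neighbours Myl12a and Myl12b are shown for comparison, as their transcripts moved by different amounts. RefSeq's GRCm38.p6 windows of 300 bases around the annotated start lie on the minus strand, at chr17:71002484-71002783 for Myl12a and chr17:70990467-70990766 for Myl12b. The capitals mark matches, on either strand, to the GC box GGGCGG and the MCAT element CATTCC.
Myl12a: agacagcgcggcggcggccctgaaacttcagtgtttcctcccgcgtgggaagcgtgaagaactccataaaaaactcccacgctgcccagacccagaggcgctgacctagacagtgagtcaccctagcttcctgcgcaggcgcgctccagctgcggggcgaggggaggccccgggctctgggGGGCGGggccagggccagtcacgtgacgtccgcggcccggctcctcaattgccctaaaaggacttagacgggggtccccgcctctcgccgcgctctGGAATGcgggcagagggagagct
Myl12b: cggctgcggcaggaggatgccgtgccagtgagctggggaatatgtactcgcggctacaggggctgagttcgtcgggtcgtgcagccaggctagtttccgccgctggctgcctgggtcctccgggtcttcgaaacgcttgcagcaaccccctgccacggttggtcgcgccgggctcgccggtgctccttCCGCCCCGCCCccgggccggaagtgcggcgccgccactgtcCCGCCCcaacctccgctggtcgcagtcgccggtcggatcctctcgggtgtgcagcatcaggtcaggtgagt
Myl12a had a GC box and an MCAT match in its window, and Myl12b had 3 GC boxes, of which 2 share letters, and no MCAT match. A GC box was present in 35.7% of 32851 RefSeq promoter windows and an MCAT match in 14.7%. The members with a GC box were Myh9, Myh14, Myl12a, Myl12b and Myl6, and those with an MCAT match were Myh10 and Myl12a. The CCAAT box, spelled CCAAT, was found in windows of 4 members against 37.4% of all windows, and the TATA box, spelled TATAAA, in Myh9 alone against 13.6%. The CArG box, the element of serum response factor, was present in 1 of the Myl6 windows and in 1.63% of all windows. These matches are descriptions of letters and not of binding.

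Total counts per library were between 17633475 and 33499162, and the members had between 161 and 51877 counts in a library. Summed counts of 6 muscle fibre markers (Ckm, Acta1, Myh4, Tnnt3, Actn3 and Pvalb) were between 91830 and 175400 CPM, the counts scaled to library size, in all libraries, as the tissue label states. The libraries differed in how expression depended on gene length. For each library, the slope of its log2 CPM deviation from the mean of all libraries on log2 exonic length was computed over all genes kept, so that a negative slope means fewer counts on long genes. In the second run this slope was between 0.124 and 0.173 at 6m and between -0.434 and 0.078 at 28m, with no overlap. In the first run it was between 0.072 and 0.171 in 6 of the libraries at 6m and -0.234 in replicate 4, and at 24m between -0.01 and 0.183 in 6 libraries and -0.516 in replicate 4. Replicate numbers here name the mice of a group in the order of their records.

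Levels of different genes were compared as CPM per kilobase of exonic length. In the second run at 6m, Myl12a was the most abundant member at 64.2 ± 6.2 CPM per kb (SD, n = 7), followed by Myl6 at 27.7 ± 2.4, Myh9 at 14.5 ± 0.47 and Myh14 at 11.98 ± 1.2, with Myl12b at 5.03 ± 0.39 and Myh10 at 3.40 ± 0.36. No pair of neighbours in this order overlapped between mice. The order depends on the length used: per kilobase of coding sequence, Myl12b was at 22.4, above Myh9 at 18.4 and Myh14 at 12.98. Per kilobase of exonic length, Myl12a held 92.7% ± 0.67 of the summed level of Myl12a and Myl12b. Myl9, a regulatory light chain listed here with smooth muscle myosin, is not in this sum and was at 32.5 ± 4.4 CPM. Among the heavy chains Myh9 and Myh14 were the main forms, with Myh10 in the minority. In the first run at 6m the order was the same by the means, with Myh9 at 13.01 ± 2.2 and Myh14 at 11.96 ± 1.2 CPM per kb, and these 2 genes did not differ beyond their spread.

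The make-up of the heavy chains differed at 28m. Myh14 took 33.8 to 42.4% of the summed heavy chain level per kb at 6m (median 41.2%) and 48.8 to 63.1% at 28m (median 56.5%), and the groups did not overlap. Myh9 took 46.6 to 53.5% at 6m (median 48.3%) and 33.4 to 44.8% at 28m (median 37.3%), again with no overlap. The share of Myh10 was 9.71 to 12.7% at 6m and 3.49 to 7.53% at 28m. Per kb, Myh9 was above Myh14 in 7 of 7 mice at 6m and in 0 of 8 at 28m. At 24m Myh14 took 41.6 to 77.1% (median 49.2%) against 37.0 to 54.0% (median 42.5%) in the 6m libraries of that run, and Myh9 was above Myh14 in 1 of 7 mice against 6 of 7. The shares also differed between libraries of the same mouse: in 6m replicate 4, whose first library had the slope of -0.234, Myh14 took 53.95% in the first library and 42.4% in the second, and Myh9 took 38.5 and 46.6%. The first of these libraries thus lay within the 28m range.

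Myh9, the heavy chain of the IIA motor of migrating and contracting nonmuscle cells, was between 103 and 114 CPM at 6m in the second run (median 108) and between 38.4 and 107 CPM at 28m (median 65.2). All 28m mice except replicate 8 lay below the 6m range, and 5 of the 8 were under 70 CPM while 3 lay close to the 6m mice. The log2fc of the fit was -0.57. Myh10, the IIB heavy chain, was between 23.9 and 32.9 CPM at 6m (median 30.1) and between 7.53 and 24.7 CPM at 28m (median 12.9). All 28m mice but replicate 6 were below the 6m range, with a log2fc of -1.14, or 0.45 of the 6m level. Myh14, the IIC heavy chain, was between 63.9 and 88.7 CPM at 6m (median 80.6) and between 61.3 and 143 CPM at 28m (median 97.5). The groups overlapped, with 5 of 8 mice above the 6m range and 1 below it, and the log2fc was 0.24.

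Myl12a was the only member with no overlap between 28m and 6m. It was between 137 and 175 CPM at 6m in the second run (median 158) and between 271 and 803 CPM at 28m (median 347). All 8 of the 28m mice were above all 7 of the 6m mice, which was true of 1 of the 6 members and, in this direction, of 6.21% of 12994 genes, while 6.18% had all 28m mice below all 6m mice. The log2fc was 1.38, or 2.61-fold, and 92 of the genes tested had a larger one. Replicate 6 was the highest 28m mouse at 803 CPM, and without it the 28m mice reached 481 CPM and the log2fc was 1.18, against -1.33 for Myh10. Myom1, whose exons overlap those of Myl12a on the other strand, was between 2312 and 2567 CPM at 6m and between 1798 and 2739 CPM at 28m.

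The other light chains differed less. Myl12b, the close relative of Myl12a, was between 10.4 and 12.8 CPM at 6m (median 11.4) and between 10.9 and 23.8 CPM at 28m (median 15.1), with a log2fc of 0.45. Myl6, which encodes the essential light chain of nonmuscle and smooth muscle myosin, was between 43.6 and 54.9 CPM at 6m (median 45.3) and between 48.7 and 99.7 CPM at 28m (median 63.7), with a log2fc of 0.54. In both genes the same 5 of the 28m mice (replicates 1, 2, 3, 5 and 7) were above the 6m range, and the other 3 lay within it. Replicate 6 had the highest Myl12a and the lowest Myl12b of the 28m group. For this pair Pearson's r was -0.0148 over the 8 mice (exact p = 0.973, adjusted p = 0.973) and Spearman's coefficient was 0.262 (exact p = 0.536, adjusted p = 0.83), and r was 0.736 without the 2 mice farthest from the median of Myl12a.

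**Figure D1:**
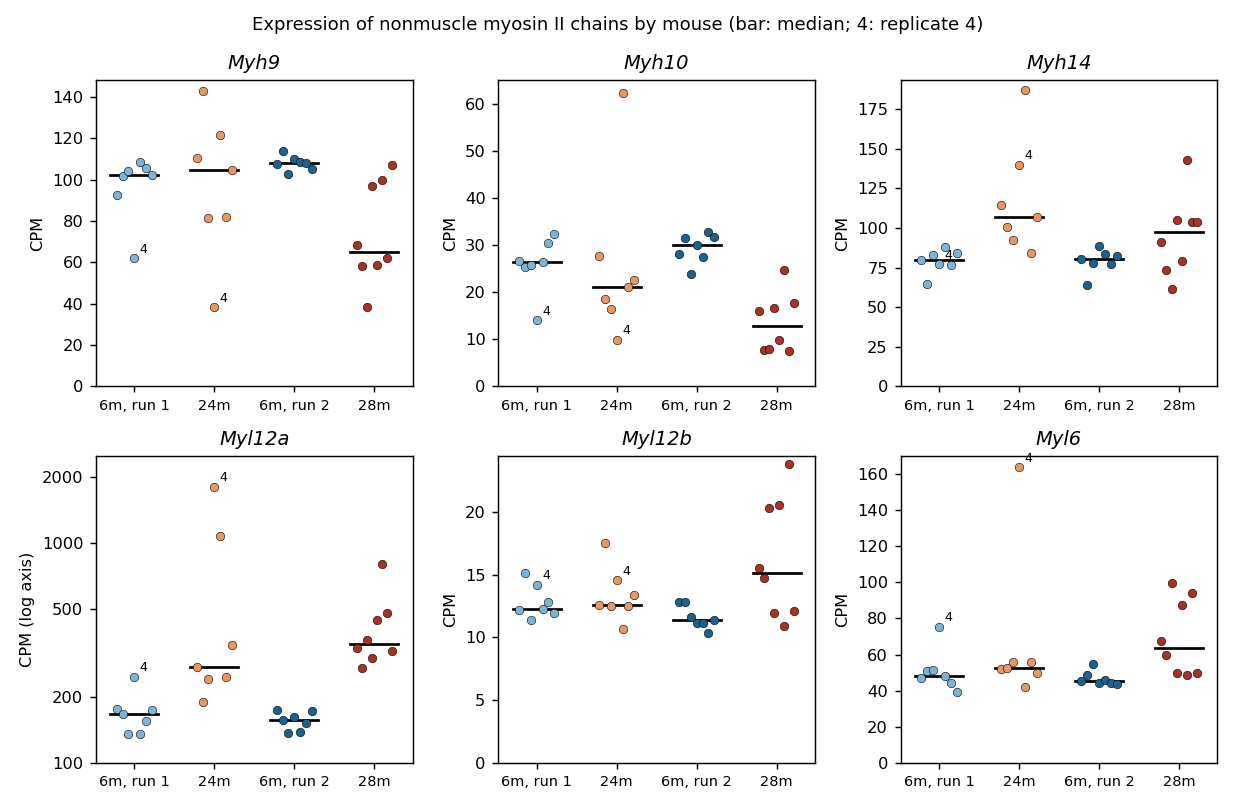
CPM of each chain (vertical axis; logarithmic for Myl12a, from 0 for the others) in the 29 libraries, grouped by age and run, with a point for each library, a bar at the group median, and replicate 4 of the first run's groups numbered. All 28m points of Myl12a lie above the 6m points of their run, whereas those of Myh14, Myl12b and Myl6 overlap them.

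Gene length moved with these differences over the whole transcriptome. Across 12871 genes with a known length, Spearman's coefficient between exonic length and log2fc at 28m was -0.634, given as a description across genes, which are not independent. Among 1580 other genes of 6000 to 9000 exonic bases, the range of the heavy chains, the median log2fc was -0.42 and 55.7% were called lower. Among 2639 other genes of 1500 to 2500 bases, the range of the light chains, the median was 0.27 and 40.9% were called higher. Against genes of like length, Myh9 lay within the bulk, with 65.6% of them above its log2fc, as did Myl12b and Myl6 with 27.3% and 18.3% above. Myl12a stood near the top with 0.834% of its length class above it, Myh14 had 6.90% above it, and Myh10 had 94.4% above it.

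After the smooth dependence of each library on length and GC content had been taken out, the log2fc at 28m was -0.08 for Myh9, -0.64 for Myh10 and 0.74 for Myh14, and 1.25 for Myl12a, 0.30 for Myl12b and 0.23 for Myl6. The difference of Myl12a thus kept most of its size, that of Myh9 came close to 0, and that of Myh14 became about as large as that of Myh10 in the other direction. The 28m libraries with the steepest slopes were replicates 3, 5 and 7, and without these, log2fc values were -0.34 for Myh9, -0.83 for Myh10, 0.37 for Myh14, 1.37 for Myl12a, 0.16 for Myl12b and 0.23 for Myl6. With the 6m libraries of the first run in place of those of the second, they were -0.41, -0.95, 0.25, 1.28, 0.31 and 0.44 in the same order of genes.

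**Figure D2:**
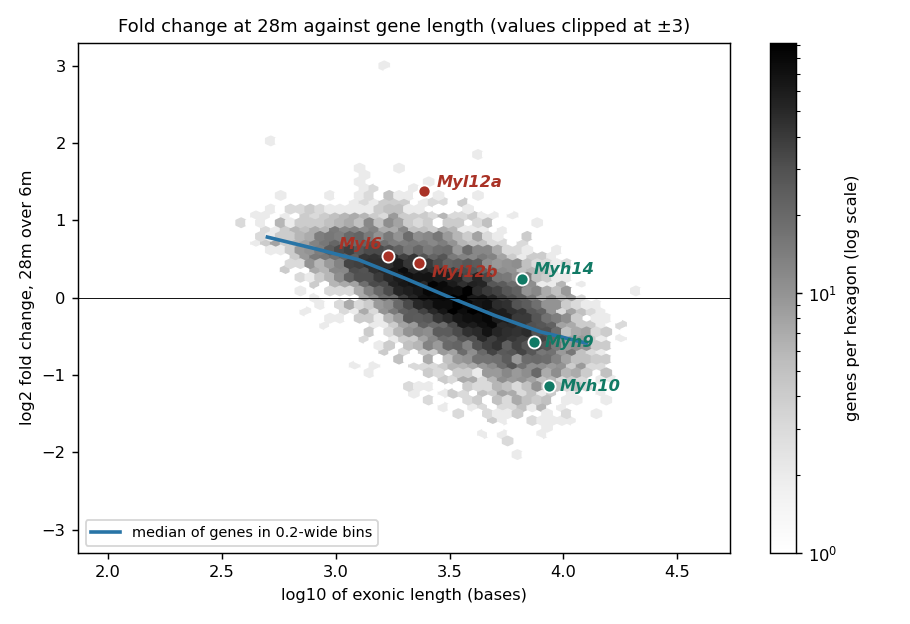
Log2 fold change at 28m over 6m (vertical axis) against the log10 of exonic length in bases, with all genes as hexagons shaded by number on a log scale, the median of genes in bins of length as a line, and the 6 chains as points. Myh9, Myl6 and Myl12b lie near the line, whereas Myl12a and Myh14 lie above it and Myh10 below it.

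The 3 mice at 28m whose slopes were nearest to those at 6m were replicates 4, 6 and 8, at 0.048, -0.043 and 0.078. Their Myl6 was 49.98, 48.7 and 49.8 CPM and their Myl12b 11.9, 10.9 and 12.1 CPM, all within the 6m range. Their Myh9 was 96.8, 99.7 and 107 CPM, within that range or just below it. In the same mice Myl12a was 300, 803 and 324 CPM and Myh10 was 16.7, 24.7 and 17.8 CPM, so that Myl12a was above all 6m mice in each and Myh10 below them in all but replicate 6.

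The 6m mice, prepared and sequenced in both runs, gave the same RNA source measured again. Between the runs, the members' log2fc (second over first) ran from -0.14 for Myl12b to 0.21 for Myh10, and 0 of 6 passed at an adjusted p of 0.05 by edgeR with the mouse as a block (adjusted p between 0.498 and 0.913), where 0% of 12884 genes passed. Without replicate 4, 186 of 12911 genes passed and still 0 of the members. None of the 6 had an unadjusted p under 0.05 by edgeR, DESeq2 or limma-voom, where 8.17% of all genes did by edgeR. A single mouse stood apart. In replicate 4, whose first library had the negative slope, Myh9 was 61.9 CPM in the first library and 110 CPM in the second, Myh10 was 14.1 and 30.1 CPM, and Myl6 was 75.5 and 44.4 CPM. Thus the first library of this mouse had lower heavy chains than the second, by 0.83 (Myh9), 1.09 (Myh10) and only 0.20 (Myh14) on the log2 scale. The light chains of the first library were higher, with second-minus-first values of -0.61 for Myl12a, -0.35 for Myl12b and -0.77 for Myl6. In the other 6 mice the difference between libraries was between -0.02 and 0.21 for Myh9, between -0.11 and 0.31 for Myh10 and between -0.09 and 0.01 for Myh14. For the light chains it was between -0.08 and 0.03 for Myl12a, between -0.31 and 0.08 for Myl12b and between -0.06 and 0.16 for Myl6. Myl12b of replicate 4 thus lay close to the other mice. With the trend with length and GC removed, the values of replicate 4 were 0.11 for Myh9, 0.37 for Myh10, -0.46 for Myh14, -0.44 for Myl12a, -0.18 for Myl12b and -0.44 for Myl6. Myh14 thus changed sign.

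Within groups, the difference between the mean log2 CPM of the light chains and that of the heavy chains moved with the slope on gene length. At 28m this difference was between 0.00 and 1.76 (median 0.78), with Pearson's r of -0.979 and Spearman's coefficient of -0.976 against the slope over 8 mice. It was -0.976 without the 2 mice farthest from the median slope. In the first run r was -0.981 at 6m and -0.994 at 24m over 7 mice each, and without the 2 farthest mice, replicate 4 among them, it was -0.816 and -0.815. In the second run at 6m, where slopes hardly varied, r was -0.416. These values are descriptions, as both quantities come from the same libraries, and what part the slope has in the age difference was not tested. With the trend removed, r was -0.922 at 28m (-0.966 without the 2 farthest mice), -0.985 at 24m (-0.648), -0.827 at 6m in the first run (-0.371) and -0.164 at 6m in the second (0.0242).

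**Figure D3:**
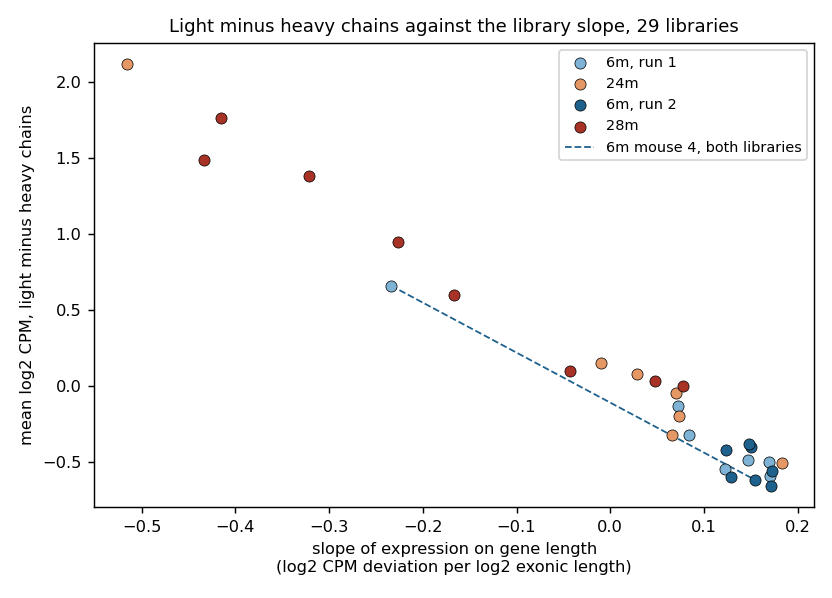
Mean log2 CPM of the 3 light chains minus that of the 3 heavy chains (vertical axis) against the slope of expression on gene length (horizontal axis, log2 CPM deviation per log2 exonic length) for the 29 libraries, colored by group. The points follow a falling line that joins both libraries of 6m mouse 4 (dashed), and the 28m libraries reach 1.76 at slopes down to -0.434.

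Of 60 pairs of members within the 4 groups, 2 had a Pearson correlation that passed at an adjusted p of 0.05 over the 60 pairs (exact permutation tests, two-sided), and 0 passed by Spearman's coefficient. Myl12b and Myl6 varied together among the 28m mice, with r of 0.974 (exact p = 0.000645, adjusted p = 0.0193) and a Spearman coefficient of 0.905 (exact p = 0.00456, adjusted p = 0.101), and r was 0.982 without the 2 mice farthest from the median. In the first run at 6m, Myh10 and Myl6 had r of -0.986 (exact p = 0.000595, adjusted p = 0.0193) and a Spearman coefficient of -0.964 (exact p = 0.00278, adjusted p = 0.101), with r of -0.898 without the 2 farthest mice. In the second libraries of the same mice, r of Myh10 with Myl6 was -0.764 (exact p = 0.0508, adjusted p = 0.218), and -0.068 without the 2 farthest mice, and with the trend removed it was -0.962 (exact p = 0.00337, adjusted p = 0.0506), and -0.849 without the 2 farthest mice. With the trend removed 3 pairs passed: the same 2, at r of 0.942 and -0.964, and Myh14 with Myl12a at 24m, at 0.964 (exact p = 0.00159, adjusted p = 0.0317), where r was 0.822 before the removal (exact p = 0.0302, adjusted p = 0.151). Without the 2 farthest mice, r of this pair was 0.763 with the trend removed and 0.378 before. All libraries of a group came from 1 run, so no batch could be separated within them.

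The 24m mice were not used to choose the family and their values were tested. By edgeR's quasi-likelihood test, 0 of 6 members passed at an adjusted p of 0.05, against 0.0229% of 13103 genes lower and 0.0611% higher. An unadjusted p under 0.05 was found for 2 members, Myh14 and Myl12a, by edgeR and by limma-voom, as for 11.8% and 9.42% of all genes, and DESeq2 gave 1 call, Myl12a, while calling 0.293% of 15367 genes lower and 1.11% higher. No member had all 24m mice on one side of all 6m mice, which held for 0.359% of genes above and 0.229% below.

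Myl12a was between 135 and 247 CPM at 6m in the first run (median 166) and between 189 and 1814 CPM at 24m (median 273). The highest 6m value was replicate 4, and 4 of the 7 mice at 24m were above it, with replicates 4 and 5 at 1814 and 1083 CPM far above the rest. The log2fc was 1.80 with an SE of 0.47 (adjusted p = 0.195), and the adjusted p over all alternatives was between 0.0118 and 0.384. DESeq2 gave an adjusted p of 0.0118 and a fit with a dispersion from all 29 libraries gave 0.0142. Without replicates 4 and 5 the log2fc was 0.61 (adjusted p = 0.171). Without replicate 4 of both ages, the libraries with the most negative slopes of the run, it was 1.33 (adjusted p = 0.095). The level of Myl12a in these 2 mice was above that of all 28m mice, although the groups were prepared in different runs.

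Myh14 was between 64.5 and 88.2 CPM at 6m in the first run (median 79.8) and between 84.5 and 187 CPM at 24m (median 107). All mice at 24m but replicate 6 were above the 6m range. The log2fc was 0.56 with an SE of 0.15 (adjusted p = 0.208), so the difference did not pass after adjustment by edgeR, and the adjusted p was between 0.0523 and 0.393 over the alternatives. With the trend removed the log2fc was 0.70.

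The other members did not pass at 24m either. Myh9 had a log2fc of 0.00 (SE 0.23, adjusted p = 0.996), with mice between 38.3 and 143 CPM at 24m (median 105) against 61.9 to 109 CPM (median 102). Myh10 had a log2fc of -0.03 (SE 0.32, adjusted p = 0.972), with replicate 5 at 62.4 CPM and replicate 4 at 9.90 CPM on either side of a median of 21.2 CPM, against 14.1 to 32.4 CPM at 6m. Myl12b had a log2fc of 0.05 (SE 0.11, adjusted p = 0.857). Myl6 had a log2fc of 0.39 (SE 0.27, adjusted p = 0.538), and 1 library carried it: replicate 4 at 163.8 CPM, against 42.2 to 56.1 CPM in the other mice at 24m and 39.1 to 75.5 CPM at 6m. Without that library the log2fc of Myl6 was 0.02.

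**Figure D4:**
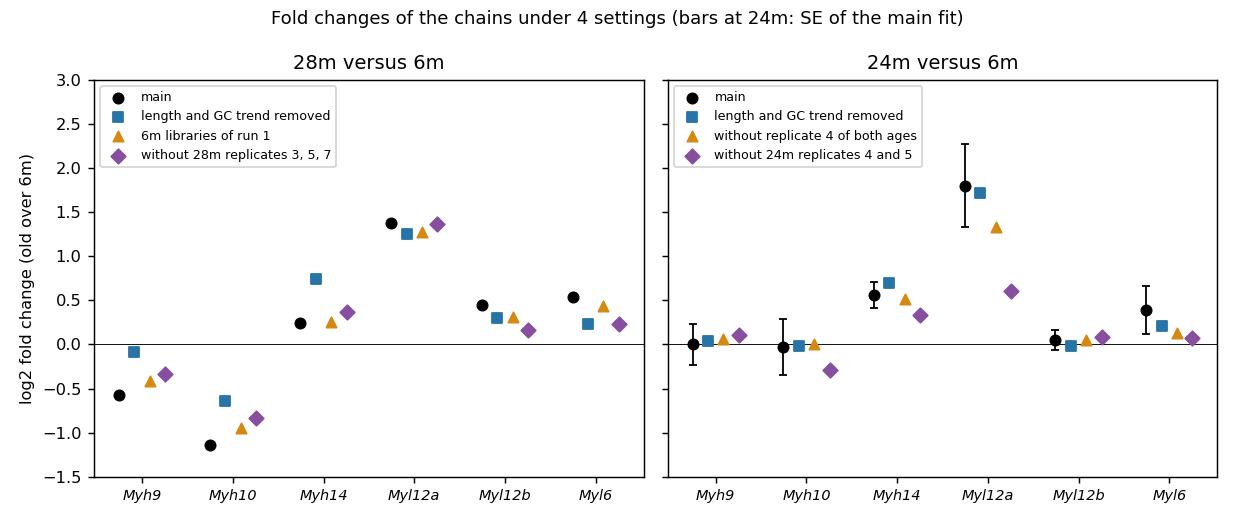
Log2 fold changes of the 6 chains (vertical axis, old over 6m) at 28m (left) and 24m (right) in the main fit and under 3 other settings each; bars at 24m are the SE of the main fit. Myl12a is above 1.2 under all 4 settings at 28m and at 24m is 1.80 in the main fit and 0.61 without replicates 4 and 5.

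The regulators and partners of the motor were examined next, as genes whose values did not choose the family. They were 53 genes in 5 lists: kinases of the regulatory light chain, subunits and inhibitors of myosin phosphatase, the RhoA switch with its activators and inactivators, proteins that bind or modify the heavy chain, and proteins of the actin filament. At 28m, 16 of 52 tested were lower, 11 were higher and 25 did not pass at an adjusted p of 0.05, with a median log2fc of -0.11 against 0.01 over all genes. Over all genes, 22.9% were lower and 24.3% higher. The genes called lower had 3937 to 12588 exonic bases (median 8792) and those called higher 498 to 4605 (median 1920). With the trend with length and GC removed, 7 were lower and 12 higher, against 12.8% and 17.8% of all genes, and 6 of the 16 and 7 of the 11 kept their call and direction. Without 28m replicates 3, 5 and 7 the counts were 15 lower and 9 higher, where 17.2% and 17.6% of all genes were. With the 6m libraries of the first run fewer passed in each direction than in the main fit, where 11% and 12% of all genes did.

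Of 11 kinases of the light chain, 5 fell and 1 rose, where 22.9% of all genes were lower and 24.3% higher. The 5 that fell had 5940 to 9559 exonic bases, and of genes of 6000 to 9000 bases 55.7% were lower. Rock2 fell from 179 ± 29.1 CPM (SD, n = 7) to 116 ± 25.9 CPM (SD, n = 8), with a log2fc of -0.66 and an SE of 0.14 (adjusted p = 0.0021). Dapk1, a death-associated protein kinase at a low level, fell from 5.81 ± 2.2 to 2.99 ± 0.83 CPM (log2fc -0.99, SE 0.23, adjusted p = 0.00307). Dapk3, also known as ZIP kinase, rose from 24.8 ± 2.1 to 36.7 ± 4.6 CPM (log2fc 0.53, SE 0.09, adjusted p = 0.000542), with all 28m mice above all 6m mice. With the trend removed, Rock2 was at -0.25 (adjusted p = 0.105) and Dapk1 at -0.54 (adjusted p = 0.0729), whereas Dapk3 stayed called at 0.34 (adjusted p = 0.00518). Over the whole list, 0 kinases were lower and 3 higher with the trend removed, as Mylk, the myosin light chain kinase, and Rock1 were then at 0.50 (adjusted p = 0.0363) and 0.62 (adjusted p = 0.0115).

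Among 7 genes of myosin phosphatase, 1 fell and 1 rose, against 22.9% and 24.3% of all genes. Ppp1r12b, the myosin-targeting subunit found in striated muscle, fell from 115 ± 15.9 to 38.9 ± 34.9 CPM, and all 8 of the 28m mice were below the 6m mice (log2fc -1.57, SE 0.47, adjusted p = 0.0134). This was the largest fall among the 52 genes, and with the trend removed it was -1.20 (adjusted p = 0.021). Ppp1r14b, an inhibitor of the phosphatase, rose by a log2fc of 0.64 (SE 0.16, adjusted p = 0.0061) and did not pass with the trend removed (0.20, adjusted p = 0.113).

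In the RhoA switch, 4 of 12 genes tested fell and 3 rose, against 22.9% and 24.3% of all genes. Rhoc, a GTPase closely related to RhoA, rose from 24.1 ± 1.9 to 50.2 ± 12.3 CPM in all mice (log2fc 1.03, SE 0.13, adjusted p = 0.00018). Arhgef12, an exchange factor that activates RhoA, fell from 106 ± 3.1 to 56.4 ± 16.2 CPM (log2fc -0.94, SE 0.15, adjusted p = 0.000536). Arhgap35, listed under the older symbol Grlf1 and encoding an inactivator of RhoA, fell by 1.14 on the log2 scale (SE 0.24, adjusted p = 0.00197). All 3 also passed with the trend removed, at 0.66, -0.37 and -0.65. Activators and inactivators of RhoA were thus both among the genes that fell.

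Of 6 proteins of the heavy chain, 1 fell and 2 rose, against 22.9% and 24.3% of all genes. Mprip, which links myosin phosphatase to actin filaments, fell from 144 ± 3.8 to 106 ± 9.5 CPM (log2fc -0.47, SE 0.07, adjusted p = 0.000402), and with the trend removed it was 0.22 (adjusted p = 0.0948), a change of sign. Csnk2a1, the catalytic subunit of casein kinase 2, which phosphorylates the heavy chain tail, rose by a log2fc of 0.31 (SE 0.09, adjusted p = 0.0103). Its value with the trend removed was 0.45 (adjusted p = 0.00453). S100a4, a calcium-binding protein that binds the tail of the IIA heavy chain, was at 6.42 ± 4.1 and 18.8 ± 21.1 CPM (log2fc 1.51, SE 0.53, adjusted p = 0.0273), with 3 of 8 mice above the 6m range, and did not pass with the trend removed (0.57, adjusted p = 0.30).

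Of 16 actin partners, 5 fell and 4 rose, against 22.9% and 24.3% of all genes. With the trend removed 1 was lower and 4 were higher. Anln, encoding anillin, which holds myosin and actin at the cleavage furrow of dividing cells, rose from 2.41 ± 0.38 to 3.86 ± 0.77 CPM (log2fc 0.66, SE 0.15, adjusted p = 0.00334). Its value with the trend removed was 0.85 (adjusted p = 0.00056). Pfn1, the actin monomer binder profilin, rose by a log2fc of 0.48 (SE 0.12, adjusted p = 0.00634) and was at 0.01 with the trend removed (adjusted p = 0.906).

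**Figure D5:**
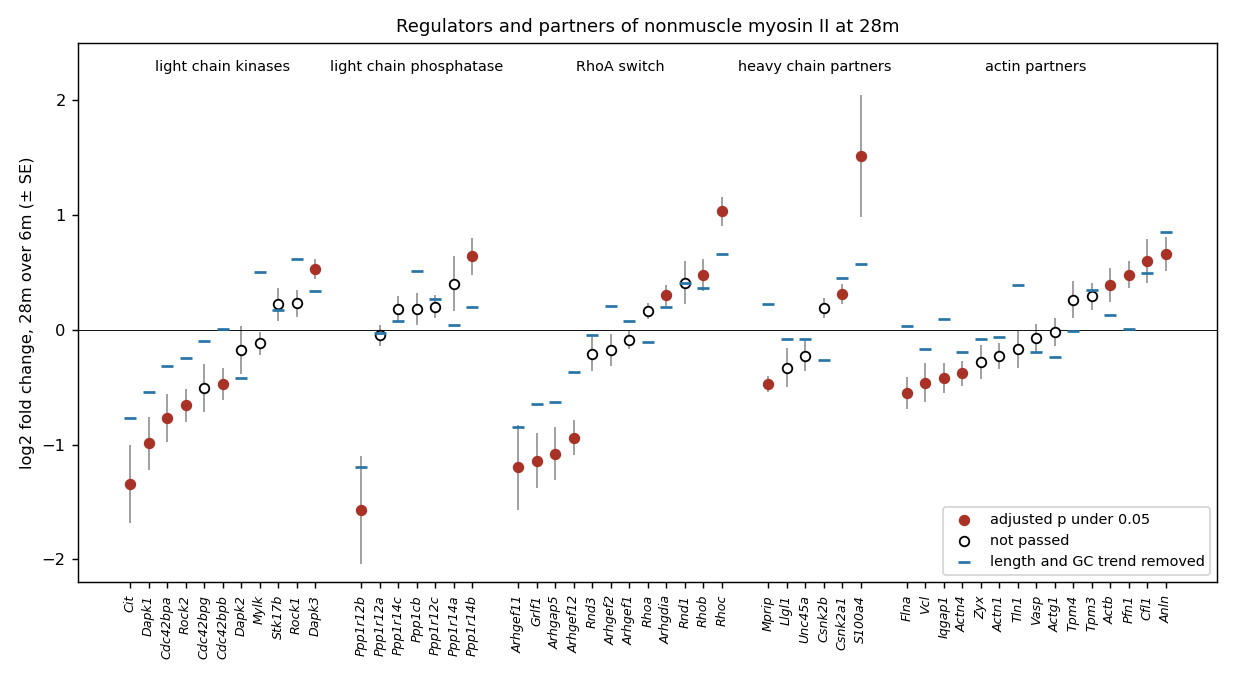
Log2 fold change at 28m over 6m with its SE (vertical axis) for the regulators and partners tested, by list, without 1 gene that is not reported here; filled points passed at an adjusted p of 0.05, open points did not, and dashes give the value with the length and GC trend removed. Ppp1r12b at -1.57 and S100a4 at 1.51 are the extremes, and Rhoc stays at 0.66 with the trend removed.

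At 24m, 0 of 52 regulators and partners passed by edgeR or limma-voom and 0 of 53 by DESeq2, which also tested the RhoA activator Ect2. An unadjusted p under 0.05 was found by edgeR for 7 genes, Actb, Anln, Dapk3, Ppp1r12a, Rhob, Rhoc and Rnd1, all of them higher at 24m, and for 10 genes by DESeq2 and 4 by limma-voom. Of all genes tested, 11.8%, 14.1% and 9.42% had such a p by the 3 tools, so that the share of regulators and partners was near the background by edgeR. For Rhoc the log2fc at 24m was 0.90 (SE 0.26, adjusted p = 0.241), with 6 of 7 mice above the 6m range.

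The sarcomeric and smooth muscle chains, which build other myosins of the same tissue, were set beside the members at 28m. Of 6 sarcomeric light chains 5 rose and 0 fell (median log2fc 0.76), where 24.3% of all genes and 40.9% of genes of 1500 to 2500 bases were higher. These light chains are shorter still, at 819 to 1475 exonic bases. Of 7 sarcomeric heavy chains 2 fell and 0 rose (median log2fc -0.31), where 22.9% of all genes and 55.7% of genes of 6000 to 9000 bases were lower, and Myh3, Myh8 and Myh7 were at 0.72, 0.57 and 0.24 without passing. Mylpf, the regulatory light chain of fast fibres, rose from 5802 ± 517 to 11320 ± 3196 CPM (log2fc 0.93, SE 0.16, adjusted p = 0.000648). Myl4 and Myl2, light chains of embryonic and atrial and of slow and ventricular muscle, rose by 1.55 (SE 0.34, adjusted p = 0.00232) and 1.48 (SE 0.37, adjusted p = 0.00532). Myl2 was at a low level, 1.55 ± 0.50 CPM at 6m and 4.47 ± 3.0 CPM at 28m. Myh4, the heavy chain of the fastest fibres, fell from 65370 ± 2917 to 47610 ± 11900 CPM (log2fc -0.48, SE 0.14, adjusted p = 0.0119). Myh7b, at a low level, fell from 6.01 ± 1.2 to 3.52 ± 1.6 CPM (log2fc -0.79, SE 0.25, adjusted p = 0.0177). Of the smooth muscle chains, the heavy chain Myh11 fell by 0.72 on the log2 scale (SE 0.18, adjusted p = 0.00562) and the regulatory light chain Myl9 rose by 0.46 (SE 0.18, adjusted p = 0.0461). With the trend removed, 3 of the sarcomeric light chains still passed and 0 of the heavy chains, and neither smooth muscle chain did. At 24m, 0 of these 15 genes passed by edgeR, DESeq2 or limma-voom, and an unadjusted p under 0.05 was found by edgeR for 5 of them, Myh3, Myh4, Myl2, Myl3 and Myl4, as for 11.8% of all genes.

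Markers of other cells of the muscle moved in part with age, where 22.9% of all genes were lower and 24.3% higher at 28m. The summed level of 6 endothelial markers was between 370 and 405 CPM at 6m and between 190 and 294 CPM at 28m, without overlap, and 5 of the 6 fell. That of 6 fibroblast markers was between 546 and 2795 CPM at 6m and between 322 and 1171 CPM at 28m, and 4 fell. Of 6 smooth muscle markers 3 fell and 1 rose, with sums of 260 to 311 CPM and 178 to 283 CPM. The sum of 6 immune markers was between 24.4 and 75.6 CPM at 6m and between 28.4 and 172 CPM at 28m, and 0 passed by edgeR, DESeq2 or limma-voom, with an unadjusted p under 0.05 by edgeR for 1, Cd68, as for 54.8% of all genes. Of 4 satellite cell markers tested 1 fell, of 6 Schwann cell markers 1 rose, of 2 erythrocyte markers tested 0 passed by edgeR and 0 had an unadjusted p under 0.05, and of 6 muscle fibre markers 1 fell and 2 rose. With the trend removed, 4 endothelial, 1 fibroblast and 1 smooth muscle markers were lower and 0 of the smooth muscle markers higher, while 1 muscle fibre marker was lower and 0 higher, 2 Schwann cell markers were higher and 1 satellite cell marker was lower. In that setting 12.8% of all genes were lower and 17.8% higher. Pax7, which defines satellite cells, had no count in at least 1 library at 28m, and Hba-a1 and Hba-a2 had none in any library. At 24m, 0 of 42 markers tested passed by edgeR, with an unadjusted p under 0.05 for 8, as for 11.8% of all genes, and endothelial sums were between 130 and 396 CPM against 287 and 409 CPM. Myh9 and Myh10 were lower in the same group as the endothelial and fibroblast markers, and the part of these cells in the result was not tested.

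The genes whose log2 CPM followed each member most closely over the 22 mice were sought among 13455 genes, with the libraries of a 6m mouse averaged. These r values are descriptions, since the mice share age groups, runs and library slopes. Myh9 was followed by Taok2 (r = 0.975), Asah2 (0.974) and Fnbp1 (0.969), and Myh10 by Arfgef2 (0.966), Pigq (0.962) and Lrp4 (0.959). Myl6 was followed by Shfm1 (0.982), Snrpd1 (0.981) and Prdx1 (0.98), which encode a proteasome subunit, a core protein of the spliceosome and a peroxiredoxin. Myl12b was followed by Prkcdbp (0.91), Lgals9 (0.905) and Ifitm2 (0.902). Myh14 was followed by Abcc8 (0.932), Rb1 (0.897) and Wwp2 (0.895), encoding a subunit of potassium channels, the retinoblastoma protein and a ubiquitin ligase. Myl12a was followed by Ccdc136 (0.973), Gadd45a (0.966), a stress-induced growth arrest gene, and Hes6 (0.964), a transcription factor of myogenic and neural differentiation. The genes nearest to Myl6 had 1393 to 2544 exonic bases, those nearest to Myh9 had 6619 to 9765, and those nearest to Myl12a had 4254, 1223 and 1335.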

How the data were processed

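Poly-A RNA of whole TA muscles was sequenced from 22 mice in 29 libraries. Per the submitters' processing notes, alignment was to mm10 by STAR 2.5.4b, and the authors deposited raw read counts per gene symbol. The sources used here do not say whether the counting used strand. Group sizes follow the sample labels, and the submitters' design text swaps those of the 24m and 28m mice.

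Genes were kept with filterByExpr and libraries were scaled by TMM within each comparison. Ages were compared within a run by the quasi-likelihood F test of edgeR 4.0.16 in R 4.3.3, with Benjamini-Hochberg adjustment over all genes tested and a call at 0.05. Each mouse was 1 replicate. CPM of single mice was scaled over all 29 libraries, and log2 CPM used a prior count of 2. SEs were derived from the test. The mouse was a block in the comparison of the 6m libraries between runs. The names of the libraries give the pairing, in which a repeat marks the second library of a mouse, and deviations from the group mean correlated between the libraries of a mouse at 0.218 to 0.814. Exonic length and GC content came from GENCODE vM21, whose names matched 20202 gene symbols directly and 1879 by synonym. The authors' annotation was not used here. The trend of each library's deviations with length and GC content was fitted by splines with 4 degrees of freedom. Correlations used exact permutation tests in scipy 1.17.1, and figures matplotlib 3.10.9.

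The members and the gene lists were chosen with earlier results of these data known, so no result over the members of a list is independent support for their direction. The genes named are all members, up to 3 genes a list with the smallest adjusted p among those called at 28m, and the 3 genes most correlated with each member. Other genes given with values or named by an unadjusted p, among them Mylk, Rock1, Myh3, Myh7 and Myh8, and single libraries described, were chosen after their values were seen. Ect2, a RhoA activator, did not pass the filter on low counts in the main age comparisons and was tested only in some of the alternatives, DESeq2 among them. Results for 1 named gene are not reported here. Hbb-bs and Adgre1 are listed under the older symbols Beta-s and Emr1, and Hbb-bt was not analysed here.

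The alternatives were DESeq2 1.42.0, limma-voom (limma 3.58.1), upper-quartile scaling, size factors from DESeq2, no filter, at least 10 counts in every library, thinned counts, removal of the trend, a dispersion over all libraries, the mouse as a block, first-run libraries of the 6m mice at 28m, and leaving out each mouse in turn. Leaving out 28m replicates 3, 5 and 7, 24m replicates 4 and 5, or replicate 4 of both ages together, and combining the trend removal with the first run's 6m libraries, were chosen after seeing the data. Scripts were tested on simulated counts in which chosen genes had a known fold.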

Additional observations from a re-analysis of the deposited data

Results flagged for a closer look

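Of 32 sets of values examined for a library far from its group (the 6 chains, the light-minus-heavy difference and the slope on gene length in 4 groups), 11 held one by a criterion that chance meets in about 1 of 20 groups. These sets are not independent, since 6 of the 11 were the same library and 3 were another.

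The first-run library of 6m replicate 4 stood apart in 6 measures. Its Myh9 was 61.9 CPM and its Myh10 14.1 CPM, below 92.7 to 109 CPM and 25.4 to 32.4 CPM in the other 6 mice. Its Myl12a was 247 CPM and its Myl6 75.5 CPM, above 135 to 175 CPM and 39.1 to 51.5 CPM. Its light-minus-heavy difference was 0.66 against -0.59 to -0.13, and its slope on gene length was -0.234 against 0.072 to 0.171.

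At 24m, replicate 4 had 163.8 CPM of Myl6, a light-minus-heavy difference of 2.12 and a slope of -0.516, where the other mice had 42.2 to 56.1 CPM, -0.51 to 0.15 and -0.01 to 0.183. Replicate 5 at 24m had 62.4 CPM of Myh10, against 9.90 to 27.8 CPM in the others. At 28m, replicate 6 had 803 CPM of Myl12a against 271 to 481 CPM in the others.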

How the results depend on the processing

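At 28m each member kept its direction in the 13 other settings and in the 15 fits without a mouse, with log2fc of -0.67 to -0.06 for Myh9, -1.33 to -0.58 for Myh10, 0.13 to 0.74 for Myh14, 1.17 to 1.46 for Myl12a, 0.16 to 0.52 for Myl12b and 0.18 to 0.60 for Myl6. The count of 16 lower and 11 higher regulators and partners at 28m was 7 lower with the length and GC trend removed, 7 lower and 5 higher with the 6m libraries of the first run, 3 lower and 5 higher with both, and 7 higher in limma-voom on all 29 libraries with the mouse as a replicate block, against 10 in limma-voom on the libraries of the comparison. The former fit, which differs in the tool, the libraries and the block together, moved no other count of members or of regulators and partners by over 1.5 times. Over all genes, 11% were lower and 12% higher with the first run's 6m libraries, 7.5% and 9.33% with both, and 16% higher in the fit with the block, so calls over all genes were fewer too. At 24m the 3 genes lower and 8 higher became 45 and 170 by DESeq2, 19 and 133 with a dispersion over all 29 libraries, 12 and 30 in the fit with the block, 6 and 9 with the trend removed, 1 and 3 with at least 10 counts in every library, 45 and 76 without replicate 4 of both ages and 10 and 27 without 24m replicates 4 and 5. Without 1 mouse they were 1 to 10 and 3 to 20, the highest without 24m replicate 4. Without a mouse the count of regulators and partners was 15 to 18 lower and 9 to 14 higher. At 24m DESeq2 and a dispersion over all 29 libraries called 1 member, Myl12a, and the latter also called 1 regulator, Rhoc. The cause of these changes was not tested.

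Removing the trend changed the sign of 11 of the 52 regulators and partners at 28m, 4 of which had passed before (Mprip, from -0.47 to 0.22) and 3 of which passed then (Mylk, from -0.12 to 0.50). The members changed sign only at 24m or between runs, and none of these values passed. At 24m, Myh9 was -0.01 by DESeq2, -0.08 by limma-voom, -0.07 with the replicate block, and -0.00 with DESeq2's size factors, no filter or thinned counts, Myh10 was 0.01 without replicate 4 of both ages, and Myl12b was -0.02 with the trend removed. Between runs Myh14 was -0.15 with the trend removed. Without a mouse, Myh9 was -0.12 to 0.14, Myh10 -0.42 to 0.11 and Myl12b -0.03 to 0.11 at 24m, and Myh14 was -0.03 to 0.03 and Myl6 -0.14 to 0.02 between runs. For the run comparison, no member passed without the replicate block either. Members at 24m have 7 mice a group, and Myl12b, with 206 to 635 counts in a library, is the least deeply counted light chain.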
